A study of Mus musculus with 54 samples.

Results

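HA-tagged nuclear SREBP-1c (HA-nSREBP-1c) was mapped by ChIP-seq in mouse liver. The sites described here are those listed as peaks in Control livers and not in livers lacking Flcn in hepatocytes. They are the peaks of the pooled Control+1c list that shared no base with any peak of the pooled LiFKO+1c list. This gave 1007 of the 1702 Control+1c peaks. The other 695 Control+1c peaks overlapped a LiFKO+1c peak and are called shared sites, and 672 of the 1367 LiFKO+1c peaks overlapped none of Control+1c. All 9 deposited peak lists together held 124545 peaks. The Control+1c-only sites were chosen by the presence or absence of an HA peak, so their HA scores are given as a description with no test.

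In the HA experiment both genotypes carried floxed Flcn alleles. LiFKO+1c mice received AAV8 with Cre under the hepatocyte promoter TBG, and Control+1c mice received the same vector with GFP (1.5e11 genome copies each). Both groups also received 1.0e11 genome copies of an AAV8 carrying HA-nSREBP-1c under the liver-specific ApoE/AAT promoter, were fed the FPC diet for 9 days and were killed fed. Every site is thus one of an overexpressed, already nuclear protein. TFE3 ChIP-seq lists on the FPC diet came from LiFKO+1c, LiFKO, Control+1c and Control livers (3 pooled libraries each). Those without HA-nSREBP-1c had 2.5e11 genome copies of the Cre or GFP vector. On chow, TFE3 lists came from LiFKO and Control livers (4 pooled libraries each), with 1.5e11 genome copies of the Cre or GFP vector. RNA-seq covered other mice, without the HA virus, fasted for 4 to 6 hours after 17 to 18.5 weeks of diet. Those 5 groups of 3 libraries were AMLN-fed DKO, AMLN-fed LiFKO, AMLN-fed Control, chow-fed LiFKO and chow-fed Control, all floxed for Flcn and given 1.5e11 genome copies of the Cre or GFP vector. DKO mice additionally carried a whole-body Tfe3 deletion (-/Y), which reaches other liver cells as well as hepatocytes, and came from a separate line, so that line and genotype cannot be told apart. The labels number the libraries of a group but do not tie each to its own mouse, so p-values measure the spread between libraries.

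SREBP-1c is a helix-loop-helix transcription factor that is made as a membrane-bound precursor and switches on genes of fatty acid and triglyceride synthesis once its N-terminal part is released into the nucleus. It binds sterol response elements and can also bind E-boxes. TFE3, of the MiT family, binds E-boxes, is best known for lysosomal and autophagy genes, and is kept out of the nucleus by mTORC1 phosphorylation that needs folliculin, the product of Flcn.

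The library names inside the peak files did not all match the labels. The HA Control+1c list was pooled from 3 libraries named as HA ChIP of Control+1c animals. The HA LiFKO+1c list was pooled from 3 libraries of which 1 was named as a TFE3 library of a Control+1c animal. The TFE3 lists of FPC LiFKO, Control+1c and Control each contained 1 library named as input, and were called over one named as TFE3. The files do not show whether the names or the pools are wrong, and since only pooled lists were analysed, no result below could be repeated without those libraries. The HA and TFE3 libraries of Control+1c came from the same animal numbers. In RNA-seq, Flcn was lower in LiFKO than in Control livers by -1.03 on chow and -0.57 on AMLN (log2), while Tfe3 differed by -0.01 between AMLN livers labelled DKO and AMLN LiFKO livers. A whole-gene value does not check a partial deletion, and these libraries are called the libraries labelled DKO.

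The letters around the sites could be shown only for gene promoters, since the peaks are on mm9 and no mm9 genome was used. Of the Control+1c-only sites within 200 bp of a gene start, 54 could be tied to a single promoter window of the RefSeq table (GRCm38.p6; 250 bases before to 50 after the start). Both strands were searched for the sterol response element TCACNCCAC, the E-box CACGTG, its extended MiT form TCACGTGA (which contains the E-box), CCAAT and GGGCGG. The sterol response element was in 6 of the 54 windows (11.1%, exact 95% interval 4.19 to 22.6%), against 2 of 43 windows of shared sites (4.65%), 1 of 25 windows of LiFKO+1c-only sites (4.00%), 1.09% of 7831 windows of measured genes and 1.19% of all 22862 windows. The interval of the first share overlaps those of the shared sites (0.568 to 15.8%) and LiFKO+1c-only sites (0.101 to 20.4%). The E-box was in 8 of the 54 windows (14.8%), against 9.30% of shared-site windows, 8% of LiFKO+1c-only windows, 10.4% of measured genes and 7.12% of all windows. TCACGTGA was in 3.70% of Control+1c-only windows, against 2.33% for shared sites, 4% for LiFKO+1c-only sites, 2.08% of measured genes and 0.997% of all windows. CCAAT was in 51.9%, against 58.1% for shared sites, 76% for LiFKO+1c-only sites, 39.6% of measured genes and 38.2% of all windows. GGGCGG was in 75.9%, against 55.8% for shared sites, 48% for LiFKO+1c-only sites, 64.2% of measured genes and 35.2% of all windows. A match is not shown to lie under the peak.

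All 6 promoters with the sterol response element are printed because they hold the motif that the factor is best known to bind. Each shows the 250 bases before the start, 5′ to 3′ on the gene's strand, from RefSeq (GRCm38.p6), with the sterol response element in capitals on either strand, and for Ctsf also the E-box.
Brd1, chr15:88734220-88734469, minus strand: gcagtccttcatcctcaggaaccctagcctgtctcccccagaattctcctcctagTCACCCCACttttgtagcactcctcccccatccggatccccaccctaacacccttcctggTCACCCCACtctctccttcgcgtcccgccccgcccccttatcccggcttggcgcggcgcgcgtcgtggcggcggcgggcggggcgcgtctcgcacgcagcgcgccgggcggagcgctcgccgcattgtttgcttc
D4Wsu53e, chr4:134923375-134923624, plus strand: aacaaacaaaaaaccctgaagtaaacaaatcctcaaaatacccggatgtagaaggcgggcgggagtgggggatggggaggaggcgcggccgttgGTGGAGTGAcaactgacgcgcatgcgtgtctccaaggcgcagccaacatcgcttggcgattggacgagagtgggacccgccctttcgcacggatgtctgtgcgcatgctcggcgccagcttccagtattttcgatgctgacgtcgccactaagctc
Aldh9a1, chr1:167349741-167349990, plus strand: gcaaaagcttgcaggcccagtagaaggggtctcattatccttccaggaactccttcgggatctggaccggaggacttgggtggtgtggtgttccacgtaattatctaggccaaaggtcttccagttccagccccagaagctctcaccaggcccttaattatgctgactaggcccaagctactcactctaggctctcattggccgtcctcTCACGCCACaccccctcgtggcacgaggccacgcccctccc
Mtch2, chr2:90846905-90847154, plus strand: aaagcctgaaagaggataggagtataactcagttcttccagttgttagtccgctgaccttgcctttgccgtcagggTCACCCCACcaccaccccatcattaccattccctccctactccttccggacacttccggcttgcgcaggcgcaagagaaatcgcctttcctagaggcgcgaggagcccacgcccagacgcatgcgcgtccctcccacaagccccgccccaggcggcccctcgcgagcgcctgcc
Tiparp, chr3:65528197-65528446, plus strand: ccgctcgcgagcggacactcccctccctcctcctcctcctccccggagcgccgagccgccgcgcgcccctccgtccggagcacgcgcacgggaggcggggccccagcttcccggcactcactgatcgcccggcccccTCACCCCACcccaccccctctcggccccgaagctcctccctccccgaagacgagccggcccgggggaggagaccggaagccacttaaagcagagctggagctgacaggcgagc
Ctsf, chr19:4854915-4855164, plus strand: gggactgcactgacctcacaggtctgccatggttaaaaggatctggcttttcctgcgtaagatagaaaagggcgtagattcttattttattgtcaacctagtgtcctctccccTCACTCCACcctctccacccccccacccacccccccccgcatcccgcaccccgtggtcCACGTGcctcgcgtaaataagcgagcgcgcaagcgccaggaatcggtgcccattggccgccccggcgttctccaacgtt
Brd1, a bromodomain protein of histone acetylation complexes, held the element at 2 places. Ctsf, which encodes the lysosomal protease cathepsin F, held both an element and an E-box. Aldh9a1, an aldehyde dehydrogenase of carnitine synthesis, Mtch2, a mitochondrial outer-membrane carrier homologue, Tiparp, an ADP-ribosyltransferase, and D4Wsu53e held 1 element each. The HA scores of their sites were 11.7 (Brd1), 10.6 (D4Wsu53e), 9.79 (Aldh9a1), 8.1 (Mtch2), 5.8 (Tiparp) and 3.99 (Ctsf). Mtch2 and Ctsf sites overlapped all 6 TFE3 lists, the Tiparp site 4, and the Brd1 and D4Wsu53e sites 1 each.

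The other 7 promoters with an E-box, the motif that TFE3 and SREBP-1c can both bind, follow with the E-box in capitals, in order of HA score. In Pgrmc2 and Osbpl8 it is part of the TCACGTGA form.
Hsd17b7, chr1:169969206-169969455, minus strand: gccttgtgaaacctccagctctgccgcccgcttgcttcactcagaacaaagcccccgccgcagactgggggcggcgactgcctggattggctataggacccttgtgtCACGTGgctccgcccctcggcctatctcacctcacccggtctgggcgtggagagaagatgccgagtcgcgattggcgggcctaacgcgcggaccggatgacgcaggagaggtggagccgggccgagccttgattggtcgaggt
Slc25a1, chr16:17928220-17928469, minus strand: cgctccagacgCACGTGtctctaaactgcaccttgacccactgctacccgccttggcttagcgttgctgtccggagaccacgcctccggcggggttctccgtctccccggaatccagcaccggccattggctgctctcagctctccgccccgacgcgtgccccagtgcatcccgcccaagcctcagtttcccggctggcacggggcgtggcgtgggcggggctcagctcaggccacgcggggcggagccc
Ralb, chr1:119504783-119505032, minus strand: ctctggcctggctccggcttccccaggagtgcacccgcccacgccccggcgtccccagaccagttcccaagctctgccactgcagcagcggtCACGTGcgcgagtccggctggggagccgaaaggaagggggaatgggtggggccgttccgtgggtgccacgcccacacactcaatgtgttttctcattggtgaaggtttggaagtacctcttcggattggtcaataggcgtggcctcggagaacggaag
Pgrmc2, chr3:41083047-41083296, minus strand: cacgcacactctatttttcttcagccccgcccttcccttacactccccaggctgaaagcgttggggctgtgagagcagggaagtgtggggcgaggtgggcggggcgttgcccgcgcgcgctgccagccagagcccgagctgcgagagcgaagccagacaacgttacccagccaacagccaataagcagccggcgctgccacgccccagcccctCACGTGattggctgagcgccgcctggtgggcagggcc
Osbpl8, chr10:111164552-111164801, plus strand: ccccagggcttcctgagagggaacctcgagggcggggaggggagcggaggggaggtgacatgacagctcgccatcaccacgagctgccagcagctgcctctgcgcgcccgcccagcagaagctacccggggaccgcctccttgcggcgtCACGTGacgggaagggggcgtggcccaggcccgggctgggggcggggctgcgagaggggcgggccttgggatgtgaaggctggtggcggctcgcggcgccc
Hebp1, chr6:135168216-135168465, minus strand: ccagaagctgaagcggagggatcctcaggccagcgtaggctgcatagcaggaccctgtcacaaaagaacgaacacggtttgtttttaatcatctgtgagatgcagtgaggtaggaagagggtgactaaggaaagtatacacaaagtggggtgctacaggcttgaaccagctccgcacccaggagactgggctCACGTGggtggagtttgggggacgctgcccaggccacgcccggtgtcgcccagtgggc
Slc38a7, chr8:95853492-95853741, minus strand: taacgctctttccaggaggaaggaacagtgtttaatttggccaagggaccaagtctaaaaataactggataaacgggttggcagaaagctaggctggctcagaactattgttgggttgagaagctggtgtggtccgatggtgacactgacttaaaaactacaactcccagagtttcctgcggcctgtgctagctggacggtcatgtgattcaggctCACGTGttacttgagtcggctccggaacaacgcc
Hsd17b7 encodes an enzyme of the late cholesterol pathway, Slc25a1 the mitochondrial citrate carrier that supplies acetyl units for lipid synthesis, Ralb a small GTPase, Pgrmc2 a haem-binding membrane protein, Osbpl8 a lipid transfer protein of the endoplasmic reticulum, Hebp1 a haem-binding protein and Slc38a7 an amino acid transporter. Their sites scored 13.3, 11.4, 11, 10.8, 9.43, 6.89 and 6.77 and lay -63, -68, 45, -84, -170, 36 and -88 bp from the gene start, in that order.

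Control+1c-only sites were mostly the weaker peaks of their list. The authors' peak score behaved as the number of tags in the peak per 10000000 pooled tags: every score below 10 was a whole multiple, within 0.005, of the value of 1 tag (0.121). Control+1c-only sites scored from 2.78 to 21.0, with quartiles of 4.47, 5.32 and 7.01, which are 23 to 174 tags with a median of 44. Shared sites scored from 3.14 to 58.9 in the same list, with quartiles of 6.53, 8.70 and 12.2 and a median of 72 tags. The median percentile within the list was 34.3 for Control+1c-only sites and 73.6 for shared sites. LiFKO+1c-only sites stood likewise low in their own list, with a median score of 5.20 (percentile 30.1), against 8.30 for shared sites there.

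With the Control+1c list cut by score into 10 classes of nearly equal size, from the highest to the lowest class 12.9, 23.5, 40.0, 54.1, 55.9, 63.7, 75.9, 82.9, 90.0 and 92.9% of the peaks were Control+1c-only. None of the 10 highest peaks, 3 of the highest 50 and 12 of the highest 100 were among them. The highest peak of the list, at Srebf2 with a score of 58.9, was shared. Scores within one pooled list have no replicate spread, and an exact Poisson interval on the tags covers counting error only.

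**Figure D1:**
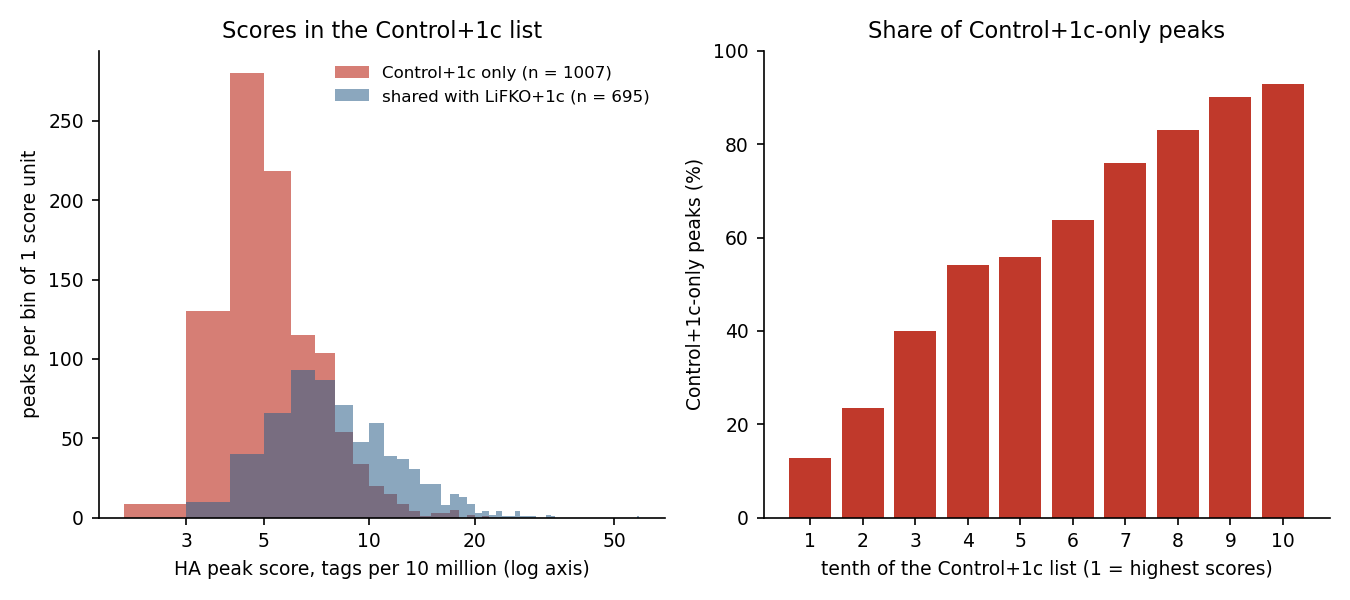
Left: number of peaks by HA score (tags per 10000000 pooled tags, log axis) for Control+1c-only and shared sites of the Control+1c list. Right: percent of peaks that were Control+1c-only in each of 10 score classes of the list, highest scores first, which runs from 12.9% in the highest class to 92.9% in the lowest.

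The 10 highest Control+1c-only sites lay mostly next to gene starts (mm9 coordinates). The highest lay -38424 bp from the start of Rasa2, a GTPase-activating protein of RAS, on chromosome 9 from 96570372 to 96570548, with a score of 21.0 (95% interval 18 to 24.4, 174 tags), rank 24 in the list and overlap with no TFE3 list. The second, -448 bp from the start of Atxn2l (chromosome 7, 133647176 to 133647352), which encodes an RNA-binding protein of stress granules, scored 19.6 at rank 31 and also overlapped no TFE3 list. Pabpn1, the nuclear poly(A)-binding protein, had a site at 1323 bp (chromosome 14, 55512572 to 55512748) with a score of 19 in the TFE3 lists of FPC LiFKO+1c and LiFKO. Tmem97, a sterol-responsive membrane protein that binds NPC1, had one at -76 bp (chromosome 11, 78364267 to 78364443) with a score of 17.8 in 4 TFE3 lists. Slc46a3, a lysosomal membrane transporter, had one at -58 bp (chromosome 5, 148706361 to 148706537) with a score of 17.6 in the TFE3 lists of FPC LiFKO+1c, FPC LiFKO and chow LiFKO. Acsl3, an acyl-CoA synthetase of the endoplasmic reticulum and lipid droplets, had one at -37 bp (chromosome 1, 78654275 to 78654451) with a score of 16.9 in 2 TFE3 lists.

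The remaining 4 of the 10 were at Gm13375 (631 bp, score 17.6, 1 TFE3 list), Tfg, which encodes a protein of endoplasmic reticulum exit sites (-70 bp, 17.4, 1 list), Agfg2, an ARF-GAP domain protein (-215 bp, 17.2, 5 lists) and Elk4, an ETS transcription factor (14827 bp and inside the gene, 16.6, 2 lists). The next highest at gene starts were Pikfyve, the lipid kinase of endosomes and lysosomes (-117 bp, 16.3), Lgr4, an R-spondin receptor (-101 bp, 15.6), Sh3gl1, an endophilin (-54 bp, 15), 2010011I20Rik (-137 bp, 15) and Klf6, a zinc-finger factor (-201 bp, 14.9). Without any TFE3 peak, the highest after Rasa2 and Atxn2l were at Eps15, an endocytic adaptor (32674 bp, 12.8), Mmab, an enzyme of cobalamin metabolism (-92 bp, 11.8) and Mfsd2a, a lysophospholipid transporter (5602 bp, 11.6).

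Few sites lay near the limit of the selection rule in distance. How near they came to being called in LiFKO+1c is not known, as HA signal there was read only from the list. A site absent from that list is not shown to be unbound in LiFKO+1c livers. The nearest Control+1c-only site to a LiFKO+1c peak, at Aldh9a1 (chromosome 1, 169280020 to 169280196), missed it by 10 bases and scored 9.79. The next lay 354 bases away at D130043K22Rik (11.4) and 487 bases away at Mad1l1 (4.23). Just on the other side, shared sites at Numbl (6.29), Lipg (5.08) and Clec4n (7.25) overlapped by 62, 66 and 67 of their 177 bases. In all, 11 Control+1c-only sites had a LiFKO+1c peak within 1 kb and 68 within 10 kb, and the median distance to one was 293437 bp.

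Most Control+1c-only sites coincided with a TFE3 peak of Flcn-deleted liver. Of the 1007 sites, 709 (70.4%, exact 95% interval 67.5 to 73.2%) overlapped the 35325 TFE3 peaks of FPC LiFKO+1c, the genotype in which the HA peak itself was not listed. This was 85% for shared sites and 74.6% for LiFKO+1c-only sites. The 27751 TFE3 peaks of FPC LiFKO covered 572 Control+1c-only sites (56.8%, 53.7 to 59.9%), against 65.2% of shared and 61.9% of LiFKO+1c-only sites. In Control livers the shares were lower: 266 sites (26.4%, 23.7 to 29.3%) for the 10827 peaks of FPC Control+1c, against 29.6 and 25.3% of shared and LiFKO+1c-only sites, and 229 (22.7%, 20.2 to 25.5%) for the 9647 peaks of FPC Control, against 26.8 and 22.0%. On chow, 507 sites (50.3%, 47.2 to 53.5%) were in the 26445 peaks of LiFKO and 338 (33.6%, 30.7 to 36.6%) in the 11385 of Control, against 56.3 and 35.3% of shared sites. The order of the shares followed the length of the lists within each diet. Of each TFE3 list, Control+1c-only sites took 2.01, 2.06, 2.46, 2.37, 1.92 and 2.97% in the order just given. The intervals cover counting error only, as each list is 1 pool.

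**Figure D2:**
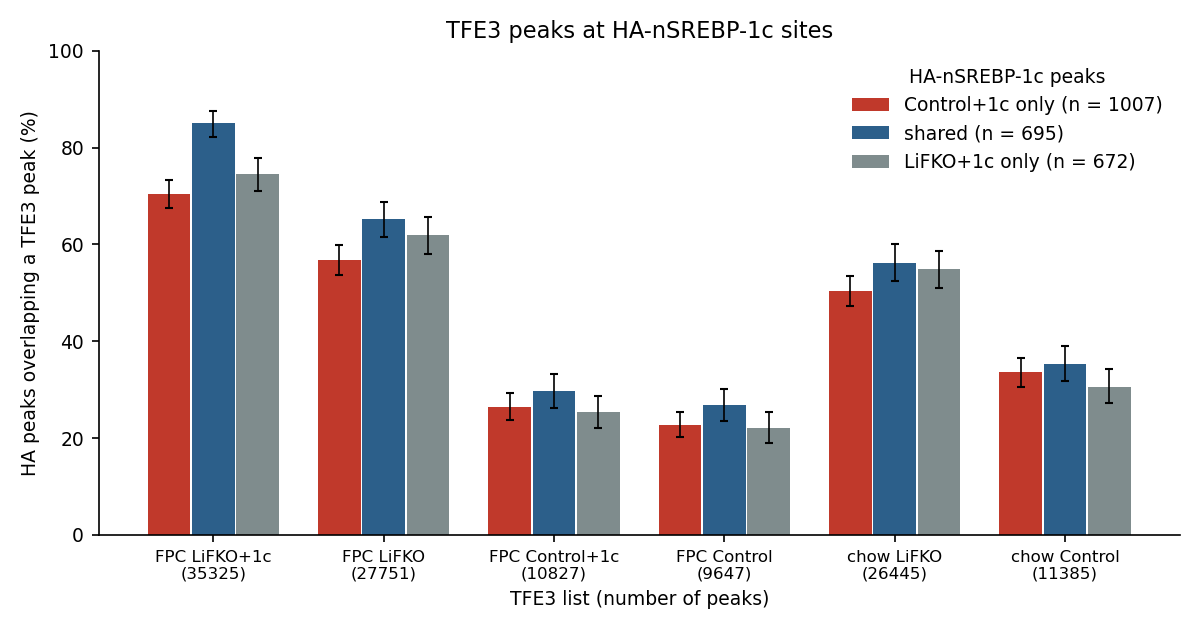
Percent of Control+1c-only, shared and LiFKO+1c-only HA sites that overlapped each of the 6 TFE3 lists by at least 1 bp; bars are exact 95% binomial intervals on the number of sites. Control+1c-only sites reached 70.4% in FPC LiFKO+1c and 22.7% in FPC Control.

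Where HA and TFE3 peaks overlapped, their centres lay close together. The median distance between the centre of a Control+1c-only site and that of its TFE3 peak was 26 to 27 bp in the FPC lists, and 42 and 33 bp in the chow lists of LiFKO and Control. The TFE3 peaks at these sites stood high in their list, with a median percentile of 72.9 in FPC LiFKO+1c, against 76.9 for those at shared sites.

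The lower overlap of Control+1c-only than of shared sites in FPC LiFKO+1c was present in each of 4 score classes of nearly equal size, which did not hold for the Control lists. From the highest class (scores 8.94 to 58.9) to the lowest (2.78 to 4.96), which held 97, 220, 308 and 382 Control+1c-only sites, 78.4, 74.1, 71.1 and 65.7% of them overlapped a TFE3 peak, against 86.3, 86.3, 82.2 and 76.7% of shared sites. In FPC LiFKO the shares were 62.9, 59.1, 57.5 and 53.4%, against 63.2, 70.7, 64.4 and 55.8%. In FPC Control+1c they were 32.0, 29.5, 27.3 and 22.5%, against 32.5, 30.7, 22.0 and 23.3%, so that the third class ran the other way. In FPC Control they were 30.9, 21.4, 24.4 and 20.2%, against 27.7, 31.7, 18.6 and 18.6%, higher for Control+1c-only sites in every class but the second. Among the Control+1c-only sites, the median score was 5.44 for those with and 5.14 for those without a TFE3 peak of FPC LiFKO+1c.

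**Figure D3:**
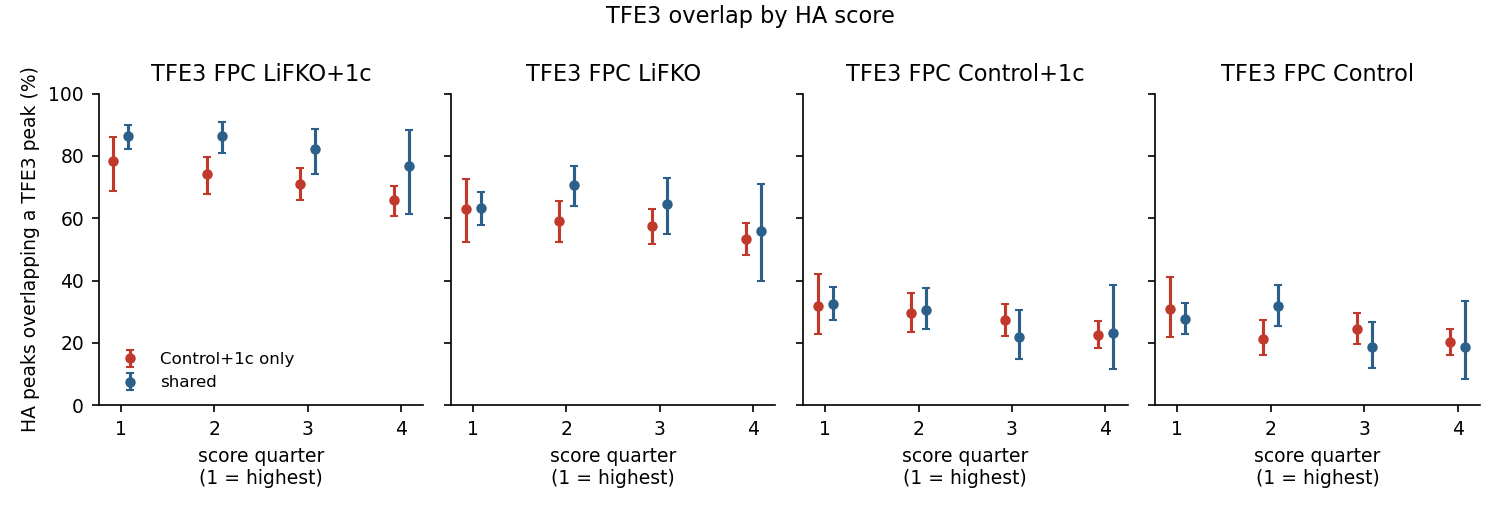
Percent of Control+1c-only and shared sites overlapping each of the 4 FPC TFE3 lists, by class of the HA score in the Control+1c list, with exact 95% binomial intervals. In the LiFKO+1c list Control+1c-only sites run from 78.4% in the highest class to 65.7% in the lowest, below shared sites in each class.

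By combination of lists, 222 Control+1c-only sites (22.0%) were in none of the 6 TFE3 lists and 118 (11.7%) were in all 6. The share in none was 11.7% for shared and 19.3% for LiFKO+1c-only sites. TFE3 peaks in at least 1 LiFKO list and in no Control list marked 320 sites (31.8%; 36.7% of shared sites). Both genotypes marked 457 (45.4%), and Control without LiFKO marked 8 (0.794%). On the FPC diet, 165 sites (16.4%) were in the LiFKO+1c and not in the LiFKO list, and 28 (2.78%) the reverse, and 160 (15.9%) were in all 4 FPC lists, against 18% of shared sites. The highest of the sites in all 4 FPC lists were at Agfg2, at Klf6, at Unc13a, a protein of vesicle priming (-43 bp, 13.1), at Cand1, a regulator of cullin ligases whose start was 174428 bp away (12.7), and at Ropn1l (-15 bp, 12.3).

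Few Control+1c-only sites were among the TFE3 peaks that the authors' deposited table lists as higher in LiFKO+1c than in LiFKO. Of its 96 peaks, 15 (15.6%) overlapped a Control+1c-only site, 36 (37.5%) a shared site and 11 a LiFKO+1c-only site, which is 1.49, 5.18 and 1.64% of those sites. In the authors' deposited table the log2 fold changes at the 15 were 1.74 to 6.97 with a median of 2.68, within the 1.11 to 6.97 (median 2.31) of the whole table. Of the 3 LiFKO libraries in that comparison 1 is named as input in the file header, so that the authors' fold changes may not be of TFE3 ChIP over TFE3 ChIP alone. Among them the authors' deposited table gives Mbnl3, a splicing regulator, 6.97 (adjusted p = 0.000167), Plcg1, a phospholipase C, 5.49, Ccdc69 3.39 (adjusted p = 0.00237), Ccdc50 2.66, Chmp6, a subunit of the ESCRT-III membrane machinery, 2.55, and Vps13c, a lipid transfer protein, 2.07. The TFE3 peak at Ccdc69 lay 491 bp from that gene's start by the authors' annotation. The HA site there scored 11, and its nearest measured gene was Gm2a, at -20463 bp. One further peak, annotated to Mir5114 with 1.86 in the authors' deposited table (chromosome 19, 44389024 to 44389200), lies 7758 bp from one end of Scd2, whose strand was not known.

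Control+1c-only sites lay at distances from genes like those of shared sites. Of the 1007, 114 (11.3%) were within 1 kb of a start of a measured gene, 260 (25.8%) within 5 kb, 381 (37.8%) within 10 kb and 739 (73.4%) within 50 kb, with a median of 18821 bp, against 18975 bp for shared sites. Within 1 kb the share was 14.2% for shared and 10.7% for LiFKO+1c-only sites, whose exact 95% intervals overlap that of Control+1c-only sites (9.43 to 13.4%). Inside a measured gene lay 49.2% of Control+1c-only and 42.7% of shared sites. The strand was known for 9914 of the 13815 measured genes (71.8%); for the others either end counted as the start. Sites within 1 kb scored a median of 6.89, against 11.7 for shared ones. At those starts, 71.9% overlapped TFE3 of FPC LiFKO+1c, 66.7% of LiFKO, 33.3% of Control+1c and 26.3% of Control. Beyond 50 kb the values were 69.4, 54.1, 26.5 and 22.0%.

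With each site assigned only to its nearest measured gene, 370 genes (2.68% of 13815) had a Control+1c-only site within 10 kb of their start. This was 243 genes (1.76%) for shared sites, and 14 genes had both. Among the listed lipid genes, the fatty acid synthesis group had a Control+1c-only site at 7 of 22 genes and a shared site at 10. The site at Slc25a1 (-68 bp) scored 11.4. Thrsp, the lipogenic Spot14 protein, had one at -6115 bp that scored 9.67 and overlapped all 6 TFE3 lists. Fads2, the delta-6 desaturase, had one at -409 bp (9.43), Acly, which cleaves citrate to acetyl-CoA, one at -938 bp (7.62), Pklr, the liver pyruvate kinase, one at 358 bp (6.53), and Elovl1, an elongase of very long acyl chains, one at 4425 bp (6.41). Scd2, a stearoyl-CoA desaturase, had 3, scoring 8.46, 7.25 and 7.13. The strand of Scd2 was not known. The sites scoring 8.46 and 7.13 were counted from one end of the gene, at 7758 and 5322 bp. That scoring 7.25 was counted from the other end, at -9316 bp, as was a shared site at 296 bp. Sites counted from the end that is not the start may lie over 10 kb from it. Acly, Pklr and Scd2 also had a shared site.

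The triglyceride group had a Control+1c-only site at 4 of 16 genes and a shared site at 2. Agpat2, which makes phosphatidic acid, had 2 sites (7.25 and 4.84), Dgat2, which adds the last acyl chain of triglyceride, 1 (5.80), Pnpla3, a droplet protein, 1 at 1155 bp (5.56), and Gpam, the first acyltransferase of glycerolipid synthesis, 1 at 48 bp that scored 4.96 and overlapped no TFE3 list. Of 21 cholesterol genes, 3 had one, against 12 with a shared site. These were Hsd17b7 (13.3), Acat2, which condenses acetyl-CoA (375 bp, 8.22), and Fdft1, squalene synthase (-6643 bp, 5.68, in no TFE3 list). Fdft1 also had a LiFKO+1c-only peak at 239 bp that scored 22.5 in its own list.

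Outside the lipid groups, Control+1c-only sites were at 1 of 27 lysosomal genes, Ctsb, which encodes cathepsin B (2838 bp from one end, 5.08). Ctsb, like Dgat2, Fdft1 and Scd2 above, was of unknown strand. Sites of these genes were counted from the nearer end, so that the start itself may lie over 10 kb away. Control+1c-only sites were also at 1 of 15 genes of fatty acid oxidation, the nuclear receptor Ppara (-2217 bp, 4.35). Of 14 hepatocyte factors 3 had one: Cebpa (-2596 bp, 6.16), Nr0b2, the bile acid-induced repressor SHP (8450 bp, 4.96), and Nr1i2, the xenobiotic receptor PXR (6869 bp, 3.87). None was at the 10 genes of SREBP processing, where 3 had a shared site, nor at the 13 genes each of glucose metabolism and the circadian clock. Over the 19 listed genes, 22 sites scored 3.87 to 13.3 with a median of 6.47. Of these, 16 overlapped TFE3 of FPC LiFKO+1c, 10 of LiFKO, 4 of Control+1c and 4 of Control.

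The expression of the 370 genes was then read in the RNA-seq of livers without the HA virus, which asks how genes next to these sites behave when Flcn or Flcn and Tfe3 are lost. Values are the authors' log2 expression values, tested with limma over all 13815 genes and called at an adjusted p under 0.05. The genes were expressed above average, with 68.4% above the median level of all genes, as were 68.3% of the genes of shared sites. In bulk liver, fewer cells of a type and less RNA per cell cannot be told apart.

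In chow-fed LiFKO livers against chow-fed Control livers, 69 of the 370 genes (18.6%) rose and 72 (19.5%) fell, against 12.5% and 13.2% of all genes. Their median change was -0.03, against -0.05 for all genes. Genes of shared sites were called at 19.8% and 18.1%, and of LiFKO+1c-only sites at 23.9% and 11.7%. Genes with a site that overlapped TFE3 of FPC LiFKO+1c (270) were called at 21.5% and 17.8%, and those with a site in no TFE3 list (72) at 11.1% and 19.4%. A gene with several sites can be in both of these sets, as Scd2 was. These differences between gene sets were not tested.

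Cotl1, an actin-binding protein whose site lay -3729 bp from the start (score 6.65), had log2 values of 11.62, 11.66 and 11.86 in chow LiFKO livers, against 9.09, 9.83 and 9.53 in chow Control livers. The groups did not overlap, and the difference was 2.23 (SE 0.15, adjusted p = 1.53e-07, limma). Lpl, lipoprotein lipase (site at 3375 bp, 6.53), had 12.18, 13.37 and 13.62 in chow LiFKO, against 10.23, 10.29 and 9.99 in chow Control, a difference of 2.89 (SE 0.40, adjusted p = 0.000112). Every LiFKO value was above every Control value. Serpina6, corticosteroid-binding globulin (sites at 2117 and 2991 bp), had 11.76, 12.31 and 11.65 in chow LiFKO, against 14.05, 14.31 and 14.03 in chow Control. It fell by 2.22 (SE 0.22, adjusted p = 6.89e-06), with all LiFKO livers low. Genes named for the largest changes, here and below, were picked among those whose groups did not overlap. Their lack of overlap was thus fixed by the choice.

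Slc46a3, with one of the 10 highest sites, had 12.79, 12.02 and 12.57 in chow LiFKO, against 11.65, 11.35 and 11.20 in chow Control, without overlap. It rose by 1.06 (SE 0.22, adjusted p = 0.00254). Hamp2, a hepcidin copy whose reads may be shared with its near-identical paralog, rose by 2.80. Ppp1r3g, a glycogen-targeting subunit of protein phosphatase, rose by 2.06, a call lost without chow LiFKO replicate 1, chow Control replicate 1 or chow Control replicate 3. Rdh9, a retinol dehydrogenase, fell by 1.90, and the cytochromes Cyp2c67 and Cyp2c54, of a family with near-identical members, changed by -1.86 and -1.82. Acsl3 had 9.45, 9.70 and 9.40 in chow LiFKO, against 10.50, 10.02 and 9.91 in chow Control. It fell by 0.62, a call lost without chow LiFKO replicate 1 or 3 or chow Control replicate 1 or 2. Tmem97 rose by 0.39 (adjusted p = 0.0428), with calls lost without chow LiFKO replicate 2 or 3 or chow Control replicate 1 or 2, and with replicate number as a block over all libraries (adjusted p = 0.0622). Of the other nearest genes of the 10 highest sites, Rasa2 fell by 0.91 and Atxn2l by 0.32. Their calls were kept in 3 and 1 of 6 fits with 1 library left out. Pabpn1 (-0.13), Gm13375 (-0.10), Tfg (0.05), Agfg2 (0.18) and Elk4 (0.03) were not called. The starts of Rasa2 and Elk4 lay over 10 kb from their sites.

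The listed genes with a Control+1c-only site split in this comparison: 5 of 19 rose and 4 fell. Pklr had 14.91, 14.10 and 14.54 in chow LiFKO, against 13.11, 12.36 and 13.10 in chow Control, a rise of 1.66 (SE 0.31, adjusted p = 0.00119). Fads2 had 15.17, 15.77 and 15.56, against 14.18, 14.44 and 14.08, a rise of 1.27 (SE 0.16, adjusted p = 4.69e-05). Neither gene's groups overlapped. Ctsb rose by 0.99, Ppara by 0.48 and Elovl1 by 0.47. Fdft1 had 10.72, 10.18 and 10.53 in chow LiFKO, against 11.67, 11.45 and 11.88 in chow Control, and fell by 1.19 (SE 0.15, adjusted p = 4.51e-05). Cebpa fell by 0.56, Acat2 by 0.50 and Slc25a1 by 0.39. Acly (-0.40), Dgat2 (0.32) and Hsd17b7 (-0.39) were not called. They passed only in alternatives, as with a replicate block within the 6 libraries (adjusted p = 0.0134, 0.0250 and 0.0132, limma). That block was added after the data were seen. The 14 lipid and sterol genes with a Control+1c-only site had 3 higher and 3 lower, against 3 and 10 of the 24 with a shared site and 7 and 5 of the 24 with neither. Of the 21 cholesterol genes, of which 12 had a shared and 3 a Control+1c-only site, 0 rose and 12 fell. The differences between these sets, and the part that their make-up has in them, were not tested.

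In AMLN-fed LiFKO livers against AMLN-fed Control livers, 45 of the 370 genes (12.2%) rose and 61 (16.5%) fell, against 10.1% and 9.63% of all genes, with a median change of -0.05 against -0.02. Genes of shared sites were called at 15.2% and 19.8%. Genes of sites in no TFE3 list were called at 4.17% and 15.3%. Across both diets, whose libraries are separate, 35 of the 370 genes rose in both comparisons and 40 fell in both. The same counts over all genes were not made, so that it is not known whether these differ from the share of all genes.

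Slc46a3 had 12.37, 12.53 and 12.94 in AMLN LiFKO, against 10.85, 10.76 and 11.15 in AMLN Control. The groups did not overlap, and it rose by 1.69 (SE 0.22, adjusted p = 0.000101). Cotl1 rose by 1.67, and Tmem184a, a membrane protein with a strong site at -2228 bp (score 13.8), by 1.58. Hamp2 rose by 2.45, a call lost without AMLN LiFKO replicate 3 or AMLN Control replicate 1. Tubb2a, a beta-tubulin with close paralogs, had 10.16, 10.44 and 9.92 in AMLN LiFKO, against 13.71, 12.97 and 12.62 in AMLN Control, and fell by 2.93 (SE 0.42, adjusted p = 0.000225). Every AMLN LiFKO liver was below every AMLN Control liver. Gpd1, which makes glycerol-3-phosphate, fell by 1.83, Serpina6 by 1.47, and Dbi, the acyl-CoA-binding protein with a site at -50 bp (score 12.8), by 1.46. Acsl3 had 9.65, 9.41 and 9.52 in AMLN LiFKO, against 10.84, 10.56 and 11.03 in AMLN Control, and fell by 1.29 (SE 0.21, adjusted p = 0.000596). Of the other nearest genes of the 10 highest sites, Agfg2 rose by 0.54 and Rasa2 fell by 0.84. The call of Rasa2 was kept in 1 of 6 fits with 1 library left out. Tmem97 (0.26), Atxn2l (-0.09), Pabpn1 (-0.23), Gm13375 (-0.61), Tfg (-0.32) and Elk4 (0.04) were not called.

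Of the 19 listed genes, 8 fell and 5 rose on AMLN. Scd2 had 12.60, 11.82 and 12.40 in AMLN LiFKO, against 13.26, 13.98 and 13.65 in AMLN Control, and fell by 1.36 (SE 0.24, adjusted p = 0.00122). Gpam had 13.89, 13.74 and 13.47, against 14.83, 14.44 and 14.76, and fell by 0.98 (SE 0.15, adjusted p = 0.000432). Slc25a1 had 13.03, 13.06 and 12.99, against 13.89, 13.88 and 13.83, and fell by 0.84 (SE 0.10, adjusted p = 3.48e-05). In none of these did the groups overlap. Pnpla3 fell by 3.62, Thrsp by 1.36, Acly by 1.05, Fdft1 by 0.82 and Agpat2 by 0.77. The call of Thrsp was lost without AMLN LiFKO replicate 1 or AMLN Control replicate 1 or 3. With the replicate block within the 6 libraries, added after the data were seen, the call of Acly was lost (adjusted p = 0.0563, limma). With the same block Acat2 (-0.33) and Hsd17b7 (-0.55), not called in the main fit, passed (adjusted p = 0.0436 and 0.0306). Pklr rose by 1.55, Dgat2 by 0.88, Ctsb by 0.69, Nr1i2 by 0.55 and Ppara by 0.49. The call of Nr1i2 was lost without AMLN LiFKO replicate 2 or AMLN Control replicate 1 or 3, and that of Ppara without AMLN LiFKO replicate 1. Of the 14 lipid and sterol genes with a Control+1c-only site 2 rose and 8 fell, of the 24 with a shared site 2 and 16, and of the 24 with neither 4 and 10.

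The genes whose promoters are printed above for a sterol response element were added after their values were seen. Tiparp rose by 0.97 on chow and 0.92 on AMLN, Mtch2 by 0.46 and 0.43, and Ctsf by 0.47 and 1.08. For Brd1 the differences were -0.13 and 0.01, for D4Wsu53e -0.12 and 0.32 and for Aldh9a1 -0.16 and -0.10, none of them called.

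**Figure D4:**
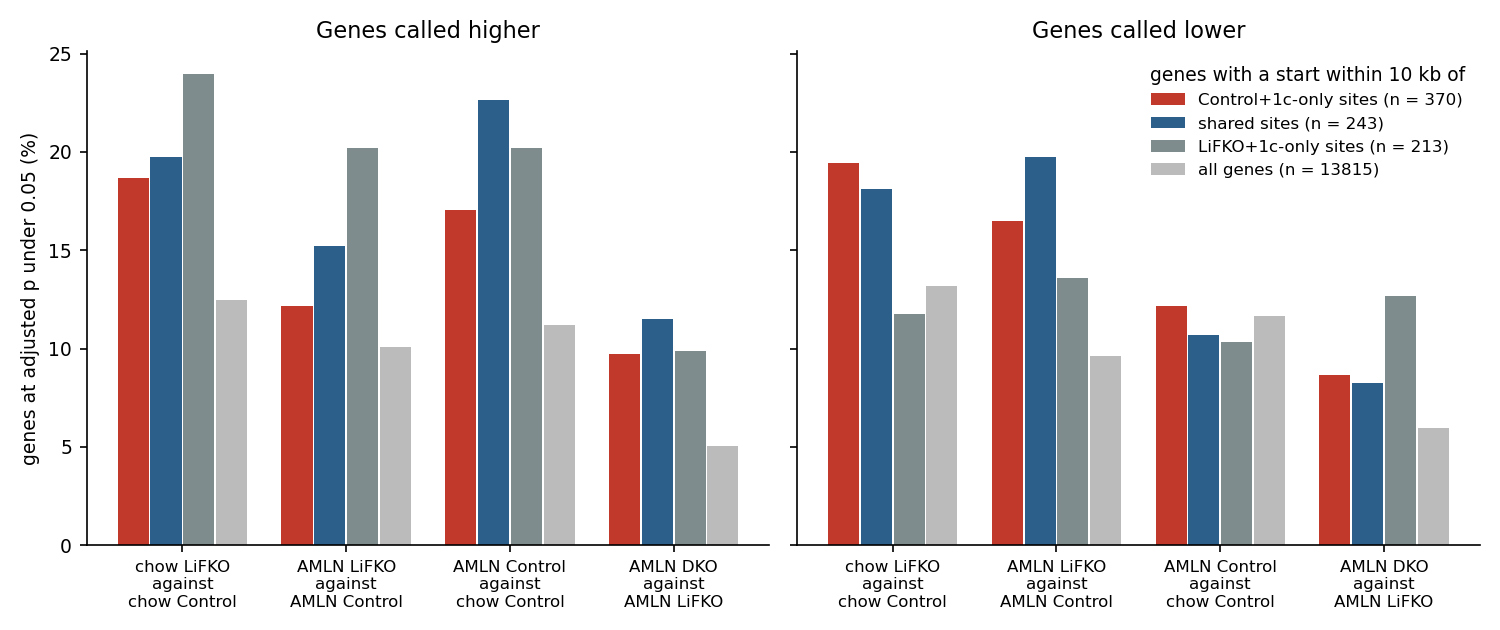
Percent of genes called higher or lower (limma, adjusted p under 0.05) in 4 comparisons, for the nearest genes, with a start within 10 kb, of Control+1c-only sites (370), shared sites (243) and LiFKO+1c-only sites (213), and for all 13815 genes. Genes of Control+1c-only sites were at 18.6% against 12.5% of all genes for higher in chow LiFKO, and at 12.2% against 11.6% for lower in AMLN Control against chow Control; the differences were not tested.

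Diet also moved genes of these sites. In AMLN-fed Control livers against chow-fed Control livers, 63 of the 370 genes (17.0%) rose and 45 (12.2%) fell, against 11.2% and 11.6% of all genes, so the share that fell was near that of all genes. The share that fell was 7.03% without AMLN Control replicate 1, 7.30% without AMLN Control replicate 2, 7.57% without chow Control replicate 1 and 7.03% without chow Control replicate 2, against 6.62 to 7.24% of all genes in these fits. With a replicate block within the 6 libraries, added after the data were seen, 8.65% rose and 3.51% fell, against 4.94% and 3.87% of all genes. Markers of other cell types differed as well: the log2 of the summed cholangiocyte markers was 12.1 to 12.7 in AMLN Control, against 10.1 to 10.5 in chow Control, and of stellate markers 12.6 to 13.4, against 11.5 to 12. The ranges of macrophage (14.4 to 14.8, against 13.6 to 14.4), hepatocyte (21.9 to 22.0 in both) and endothelial markers (13.3 to 13.5, against 13.2 to 13.6) overlapped. Their part in the diet differences was not tested. This comparison shares its libraries with those above. Of the 19 listed genes 10 rose and 0 fell. Lipid and sterol genes without such a site rose as well. Of the 14 with a Control+1c-only site 9 rose and 0 fell. This was 8 and 3 of the 24 with a shared site, and 14 and 3 of the 24 with neither. Scd2 had 13.26, 13.98 and 13.65 in AMLN Control, against 9.62, 9.61 and 10.26 in chow Control, and rose by 3.80 (SE 0.24, adjusted p = 5.83e-07). The gap between the groups was wider than the spread within either. Tubb2a rose by 3.14, Thrsp by 2.61 and Clstn3, a calsyntenin, by 2.19. Cyp2c54 fell by 2.72, Cyp2c44, also an epoxygenase, by 1.69, and Gstp2, a glutathione transferase with a close paralog, by 1.46. Ppp1r3g fell by 2.01, a call lost without AMLN Control replicate 1 or 3 or chow Control replicate 2.

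In AMLN-fed livers labelled DKO against AMLN-fed LiFKO livers, 36 of the 370 genes (9.73%) rose and 32 (8.65%) fell, against 5.05% and 5.97% of all genes. Without DKO replicate 2 or AMLN LiFKO replicate 3, 5.14% or 5.95% rose, against 2.74% or 2.96% of all genes in the same fits, and without AMLN LiFKO replicate 3 5.68% fell, against 4.27% of all genes. Genes with a site with TFE3 in FPC LiFKO+1c were called at 10.4% and 11.1%, and genes with a site in no TFE3 list at 9.72% and 1.39%. These sets overlap in part, and the difference was not tested. Slc46a3 had 10.88, 11.59 and 11.45 in libraries labelled DKO, against 12.37, 12.53 and 12.94 in AMLN LiFKO, and fell by 1.31 (SE 0.22, adjusted p = 0.00150). Serpina6 had 14.21, 14.42 and 14.55 in libraries labelled DKO, against 12.76, 12.02 and 13.10 in AMLN LiFKO, and rose by 1.77 (SE 0.22, adjusted p = 0.000142). Scd2 had 13.39, 13.81 and 13.54, against 12.60, 11.82 and 12.40, and rose by 1.31 (SE 0.24, adjusted p = 0.00312). For all of these the groups did not overlap.

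Gpd1 rose by 1.45 and Ces1f, a carboxylesterase with close paralogs, by 1.31. Cotl1 fell by 1.15, Spp2, a secreted phosphoprotein, by 1.03, and Tmem184a by 1.16, a call lost without DKO replicate 3 or AMLN LiFKO replicate 1 or 3. Acsl3 rose by 0.97 (SE 0.21, adjusted p = 0.00757). Of the 19 listed genes 6 rose and 2 fell. Of the 14 lipid and sterol genes with a Control+1c-only site 6 rose and 1 fell. This was 12 and 1 of the 24 with a shared site, and 8 and 0 of the 24 with neither. Scd2 and Slc25a1 (0.56) kept the call when any one library of the compared groups was left out. The calls of Hsd17b7 (0.73) and Agpat2 (0.64) were lost without DKO replicate 1 or 2 or AMLN LiFKO replicate 3, that of Fads2 (0.59) without DKO replicate 1 or 2 or AMLN LiFKO replicate 2 or 3, and that of Fdft1 (0.54) without DKO replicate 1 or 2 or any one AMLN LiFKO library. Ctsb fell by 0.71 and Dgat2 by 0.62.

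**Figure D5:**
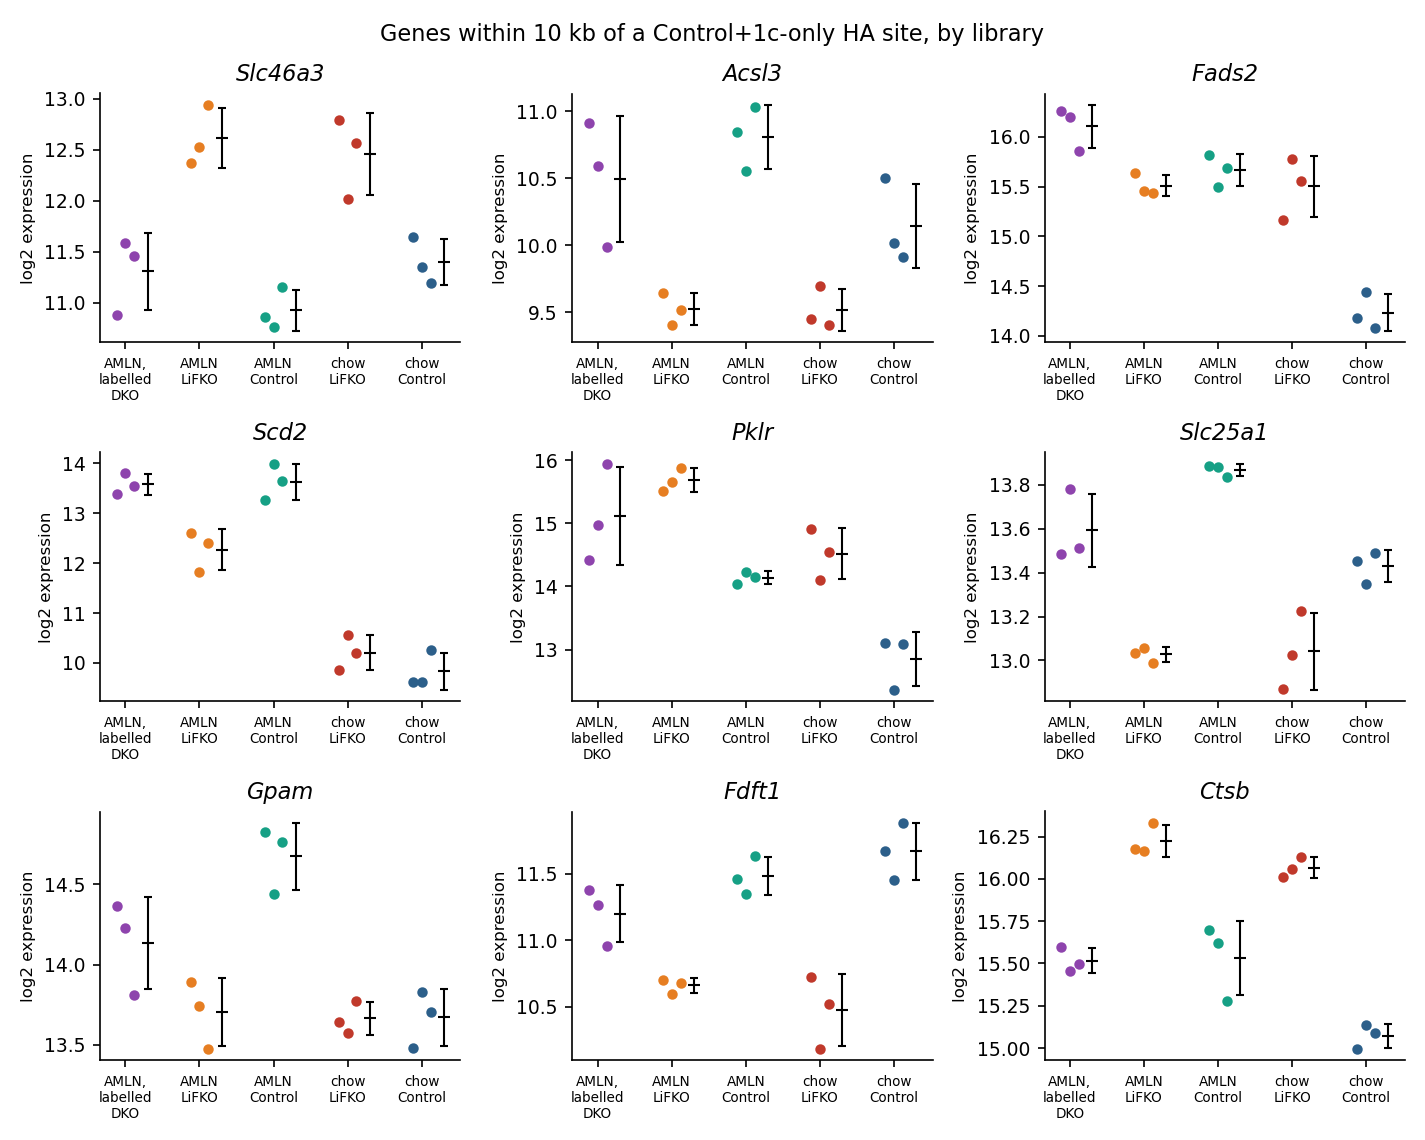
Log2 expression in each RNA-seq library (points) with the group mean and SD (bars; n = 3) for 9 genes with a Control+1c-only site, in AMLN livers labelled DKO, AMLN LiFKO, AMLN Control, chow LiFKO and chow Control. Slc46a3 lies above its Control group in LiFKO livers on both diets, and Scd2 lies near 10 on chow and above 11 on AMLN.

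The effect of Flcn loss differed between diets for 10 of the 370 genes (2.70%, against 1.04% of all genes; chow effect minus AMLN effect, limma interaction). Of these, 9 were more positive on chow and 1 more negative, against 0.76% and 0.282% of all genes in these directions. An unadjusted p under 0.05 was found for 90 of the 370 genes and for 2170 of all 13815 genes, a difference that was not tested. The 10 called genes included Tubb2a, Lpl, Clstn3, Scd2, Fads2 and Gpam.

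The summed levels of liver cell type markers moved with genotype. The log2 of the summed level of 5 hepatocyte markers was 20.9 to 21.4 in chow LiFKO livers, against 21.9 to 22.0 in chow Control livers, and 21.3 in AMLN LiFKO livers, against 21.9 to 22.0 in AMLN Control livers. The 5 endothelial markers were at 13.7 to 14.0 in chow LiFKO, against 13.2 to 13.6 in chow Control, and at 14.0 to 14.1 in AMLN LiFKO, against 13.3 to 13.5 in AMLN Control. Macrophage markers (4 of 5 measured) were at 13.8 to 14.2 in chow LiFKO, against 13.6 to 14.4 in chow Control, and overlapped on AMLN too. Stellate cell and cholangiocyte markers (5 each) overlapped between genotypes on chow. On AMLN stellate markers were at 12.3 to 12.6 in LiFKO, against 12.6 to 13.4 in Control, and cholangiocyte markers at 10.4 to 11.9, against 12.1 to 12.7. In libraries labelled DKO hepatocyte markers were at 21.9, against 21.3 in AMLN LiFKO. The part of these shifts in the expression results was not tested.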

How the data were processed

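ChIP-seq peaks and RNA-seq values were used as deposited. Each peak list gives one score per peak of pooled libraries, which the authors made with HOMER by keeping peaks called in 2 comparisons, against an input library by the labels and against a background ChIP (at least 4-fold in the file names), per the file headers, where for 3 FPC TFE3 lists the first library is named as TFE3; the backgrounds were livers without the HA virus for HA and Tfe3 KO livers for TFE3. For each peak of the differential TFE3 list, log2 fold changes and adjusted p-values were made by the authors with DESeq2 within HOMER, per the file headers. Builds were mm9. Per the submitters' processing notes the tools included Trimmomatic 0.32 and 0.36, Bowtie2 2.2.6 and 2.2.8, SAMtools 0.1.19 and 1.7, HOMER 4.4 and 4.11, and for RNA STAR 2.6.0c, featureCounts and limma. The deposited RNA values are log2 expression values of 13815 genes in 15 libraries with nearly equal quartiles in every library; offset and depth are unknown. 6 columns of per-sample values in the differential list were not used.

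Peaks overlapped at 1 bp or more. Each site was assigned to its nearest measured gene when the start of that gene lay within 10 kb of the peak centre, by the coordinates in the expression table. Other genes within 10 kb of the same site were not counted. Exons and introns were not used, since no mm9 annotation was read. Percent values and exact binomial or Poisson 95% intervals were computed here and cover counting error only. Differences in expression were tested in R 4.3.3 with limma 3.58.1: 1 mean per group over 15 libraries, contrasts, eBayes with trend, Benjamini-Hochberg adjustment over all genes of a comparison, two-sided, threshold 0.05. The fit was tested on simulated data. Peaks were handled in Python 3.11.15.

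Named sites were the 10 highest scores, the next 5 within 1 kb of a start, the highest 5 in no TFE3 list and in all FPC TFE3 lists, the 3 nearest to the rule on either side, and sites of listed genes. Named expression genes were, per comparison, up to 4 risen and 4 fallen with the largest change among called genes above the median level whose groups did not overlap. Further named genes were taken from the nearest genes of the 10 highest sites and from the listed genes with a Control+1c-only site. The sites, lists and rules were chosen with earlier results of these data known. Replicate numbers were checked as pairs from the data: same-numbered chow LiFKO and chow Control libraries had residual correlations of 0.113 to 0.237, against -0.188 to 0.0428 for other pairs, so these were treated as pairs in an alternative; in the other comparisons the lowest same-number correlation was under 0.1.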

Additional observations from a re-analysis of the deposited data

Results flagged for a closer look

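6 of the named genes with a Control+1c-only site differed in their response to Flcn loss between diets by the interaction test itself (limma, adjusted over all genes; chow effect minus AMLN effect, each effect LiFKO against Control). Tubb2a had an interaction of 3.35 (SE 0.59, adjusted p = 0.0203), from effects of 0.43 on chow and -2.93 on AMLN. Lpl had 2.54 (SE 0.56, adjusted p = 0.0476), from 2.89 and 0.34. Clstn3 had 1.90 (SE 0.40, adjusted p = 0.0392), from 2.02 and 0.13. Scd2 had 1.73 (SE 0.34, adjusted p = 0.0303), from 0.37 and -1.36. Fads2 had 1.42 (SE 0.22, adjusted p = 0.0125), from 1.27 and -0.16. Gpam had 0.97 (SE 0.21, adjusted p = 0.0480), from -0.01 and -0.98. Scd2, Fads2 and Gpam encode enzymes of lipid synthesis, and Lpl encodes a lipase that releases fatty acids from lipoproteins.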

How the results depend on the processing

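With only the upper 50% of both HA lists by score, 391 sites were Control+1c-only, and with only the upper 50% of the Control+1c list 325. The TFE3 overlap of 70.4% in FPC LiFKO+1c was 65.2% when 50% of the shorter peak had to overlap, 75.8% for centres within 1000 bp, 53.5% with the upper 50% of the TFE3 list and 75.1% with the upper 50% of the sites; for FPC LiFKO these were 52.3, 61.7, 43.2 and 60.3%. FPC Control+1c gave 29.5% (centres), 16.6% (upper 50% of TFE3) and 30.8% (upper 50% of sites), FPC Control 26.2 and 16.2% (centres, upper 50% of TFE3), chow LiFKO 39.7, 60.3 and 37.0% (50% overlap, centres, upper 50% of TFE3) and chow Control 29.5, 38.8, 21.5 and 36.9% (the same 3 and upper 50% of sites). The differential list gave 0.199% (upper 50% of TFE3) and 3.38% (upper 50% of sites). Within 5 kb in place of 1 kb of a start lay 25.8%. These shares follow from how much is counted as overlap.

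The share of genes that fell in libraries labelled DKO was 13.2% for sites within 1 kb of a start, against 5.97% of all genes. Leaving out 1 library of a comparison gave 15.7 to 17.3% higher and 16.2 to 18.4% lower for chow LiFKO, 9.73 to 12.4% and 13.8 to 15.7% for AMLN LiFKO, 11.9 to 18.6% and 7.03 to 12.2% for AMLN against chow Control, and 5.14 to 7.57% and 5.68 to 7.57% for DKO. The replicate block over all 15 libraries gave 18.4% higher and 19.2% lower for chow LiFKO, against 12.1% and 12.6% of all genes. No count of it moved by over 1.5 times. Beside the call of Tmem97 on chow it ended that of Rasa2 in AMLN LiFKO. The block within the 6 libraries, added after the data were seen, gave 76 genes (20.5%) higher and 74 (20%) lower for chow LiFKO. All genes were at 13.5% and 13.7%. For AMLN against chow Control it gave 8.65% and 3.51%, against 4.94% and 3.87% of all genes. In that comparison the numbers do not pair the libraries.

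Without 1 library the sign turned for 9 differences that were not called. Over those fits the chow LiFKO differences ranged from -0.25 to 0.031 (Gm13375), -0.033 to 0.16 (Tfg), -0.0099 to 0.093 (Elk4), -0.73 to 0.057 (Thrsp), -0.10 to 0.072 (Gpam) and -0.068 to 0.21 (Agpat2), and AMLN LiFKO differences from -0.11 to 0.21 (Elk4), -0.13 to 0.76 (Nr0b2) and -0.069 to 0.048 (Brd1). The causes were not tested. Pooled lists give no replicate spread for any site, the RNA depth is unknown, and the weakest HA peaks hold 23 tags, so that counting error is large for them.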
